A study of Mus musculus with 16 samples.

Results

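Normal ageing of mouse quadriceps was read from 8 arrays, those titled Old_Control and Young_Control, of the 16 arrays of a study of mice lacking the mitochondrial fusion gene Mfn2 in muscle. The 4 young control mice were 6 months old and the 4 old control mice 22 months old, and each array held the RNA of 1 mouse. The labels call the genotype of these mice control and do not say which alleles or which Cre transgene they carry. The other 8 arrays were from Mfn2 KO mice, 4 at each age, and entered the fit to share the estimate of the spread. All mice were fed standard chow, and the quadriceps was snap frozen. Values are log2 signals of Affymetrix probe sets. Each gene was represented by its brightest probe set over all 16 arrays, which gave 17093 genes with a single symbol.

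Quadriceps is a large limb muscle made almost wholly of fast, glycolytic fibres in the mouse. With age, limb muscle loses fibres and force, its fibres lose part of their innervation, and resident immune cells and connective tissue change beside the fibres. The fibres depend on chaperones that hold the Z-disc and its filaments in shape, on adenylate kinases and creatine kinase that buffer ATP, and on a collagen network laid down by fibroblasts. Mitofusin 2, the product of Mfn2, fuses outer mitochondrial membranes and tethers mitochondria to the endoplasmic reticulum.

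The tissue label was checked first. Quadriceps genes were near the top of the measured range in both ages, with Acta1, the skeletal actin, at means of 12.65 and 12.63, Ckm, the muscle creatine kinase, at 12.31 and 12.23, and Myh4, the fastest myosin heavy chain, at 12.39 and 12.30 in young and old control muscle (log2). The heart genes Nppa and Tnni3 had means between 3.92 and 4.22, within the range of the 23 control probe sets for non-specific binding (means 2.32 to 6.94, median 2.91). Array medians lay between 4.58 and 4.65. The SD of the values within an array went with the replicate number of the title, at 1.89 to 1.93 in the 4 control arrays of numbers 1 and 2 and 1.70 to 1.79 in those of numbers 3 and 4. After removal of group means, the young and old control arrays with the same number correlated at 0.288 to 0.751 (median 0.634, 4 pairs). The number entered the fit as a block, as set beforehand. What the number stands for is not given in the labels. The family label was the same at both ages in 1 of 4 numbers, so that family and age largely cannot be told apart. The limma p-values below rest on the spread left after group means and the block, over all 16 arrays and moderated across genes. They do not measure the plain spread between the 8 control mice. The median SE was 0.09 with the block and 0.16 without it.

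Mfn2 itself showed no age difference beyond the spread of the control mice. Its signal was 8.66, 9.05, 8.03 and 9.45 in young mice 1 to 4 and 8.52, 8.67, 8.34 and 9.18 in old mice 1 to 4. The groups overlapped, and the old mouse was higher in 1 of 4 numbers. The means were 8.80 ± 0.60 and 8.68 ± 0.36 (log2, SD, n = 4 each), a difference of -0.12, with p = 0.771 (two-sided exact permutation test, 70 ways to split the mice). The difference became 0.10 without young control mouse 4, whose signal was the highest. A second, dimmer probe set differed by -0.06 (exact permutation p = 0.886).

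Across all 17093 genes, 7 rose and 1 fell between 6 and 22 months (limma with the replicate block, Benjamini-Hochberg adjusted p under 0.05), or 0.041% and 0.00585% of the genes tested. At an unadjusted p under 0.05, 796 genes (4.66%) were higher and 852 (4.98%) lower in old muscle. All 4 old mice lay above all 4 young mice in 128 genes (0.749%) and below them in 132 (0.772%). The old mouse was above the young mouse of the same number in 4 of 4 numbers in 1273 genes. It was below in 4 of 4 in 1675 genes, so the same direction in 4 of 4 does not by itself set a gene apart. The median difference over all genes was -0.01 and the median SE 0.09. The genes that rose were Amy1, Rhpn2, Cryab, Map7, Dusp26, Spock2 and Ak4, and the gene that fell was Mlf1. These calls were fragile. With no replicate block 0 genes passed in limma (363 at unadjusted p under 0.05), and leaving out single arrays gave 0 calls without young control 1, young control 2 or old control 1, 1 call without young control 3, old control 2 or old control 3, 3 calls without old control 4 and 5 calls without young control 4.

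**Figure D1:**
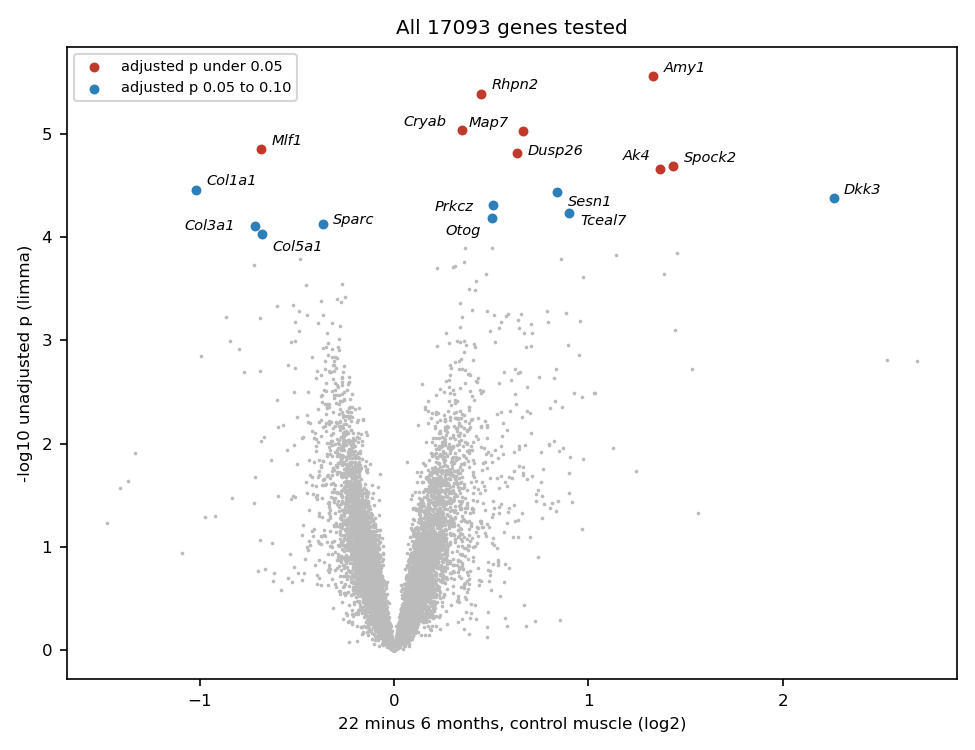
Difference between 22 and 6 months in control quadriceps (log2, x axis) against the -log10 of the unadjusted limma p (y axis), 1 point per gene for 17093 genes. The 8 called genes (red) and the 9 with an adjusted p between 0.05 and 0.10 (blue) are named, and Dkk3 at 2.26 lies farthest to the right among them.

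The largest rises among the called genes were those of Spock2, Ak4 and Amy1. Spock2, which encodes testican-2, a proteoglycan of the SPARC family, had signals of 5.74, 7.0, 5.62 and 6.82 in young and 8.18, 7.79, 7.50 and 7.47 in old mice. It rose by 1.44 (SE 0.23, adjusted p = 0.0467 by limma), or 2.71-fold, and every old mouse was above every young mouse. Ak4, the adenylate kinase of the mitochondrial matrix, had signals of 5.57, 5.62, 5.21 and 5.05 in young and 6.78, 7.35, 6.25 and 6.54 in old mice. It rose by 1.37 (SE 0.22, adjusted p = 0.0467), or 2.59-fold, again without overlap. Amy1, the salivary type alpha-amylase that cleaves starch and glycogen, had signals of 8.86, 8.80, 7.69 and 8.72 in young and 10.05, 10.08, 9.69 and 9.58 in old mice. It rose by 1.33 (SE 0.18, adjusted p = 0.0352), or 2.52-fold, and young mouse 3 stood well below the other young mice.

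Cryab, which encodes alphaB-crystallin, a small heat shock protein that protects Z-disc and intermediate filament proteins, was at 10.88, 10.90, 10.85 and 10.73 in young and 11.25, 11.28, 11.18 and 11.04 in old mice. It rose by 0.35 (SE 0.05, adjusted p = 0.0401 by limma), the smallest change among the called genes, and the 4 numbers gave nearly the same step, from 0.31 to 0.38. Dusp26, a phosphatase that acts on MAP kinases, was at 8.67, 8.88, 8.29 and 8.24 in young and 9.27, 9.16, 9.11 and 9.08 in old mice, a rise of 0.63 (SE 0.10, adjusted p = 0.0435). The old mice lay closer together than the young mice did. Map7, a microtubule-associated protein that recruits kinesin-1, was at 4.43, 4.77, 4.89 and 4.86 in young and 5.25, 5.71, 5.41 and 5.23 in old mice, a rise of 0.66 (SE 0.10, adjusted p = 0.0401). For Cryab, Dusp26 and Map7 the ages did not overlap.

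Mlf1, myeloid leukaemia factor 1, was the gene that fell. Its signals were 9.45, 9.36, 9.60 and 9.26 in young and 8.67, 8.74, 8.67 and 8.85 in old mice. It fell by 0.69 on the log2 scale (SE 0.11, adjusted p = 0.0435 by limma), and all old mice were below all young mice. Rhpn2, rhophilin 2, had signals of 2.98, 2.89, 2.48 and 2.66 in young and 3.48, 3.46, 2.76 and 3.10 in old mice. Its rise of 0.45 (SE 0.06, adjusted p = 0.0352 by limma) was called although the ages overlapped. With the block the comparison is within numbers, and the old mouse was above the young mouse of the same number in 4 of 4. These values are around the 2.91 that is the median of the probe sets for non-specific binding, so the array does not show that Rhpn2 was expressed. The young means of Map7, Ak4 and Spock2 also lay within the range of those probe sets, and their folds are ratios of signals that are not shown to be above background in young muscle. The same holds for every gene given below with a young mean under 6.94. Among them are Dkk3, Sesn1, Tceal7, Prkcz, Otog, Cd209a, Ankrd1, Igkj1, Eda2r, Atf3, Pnpla2, Scx, Pax7, Sirt1 and Postn. So are Cpa3, Mcpt4 and most macrophage, complement and chemokine genes.

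**Figure D2:**
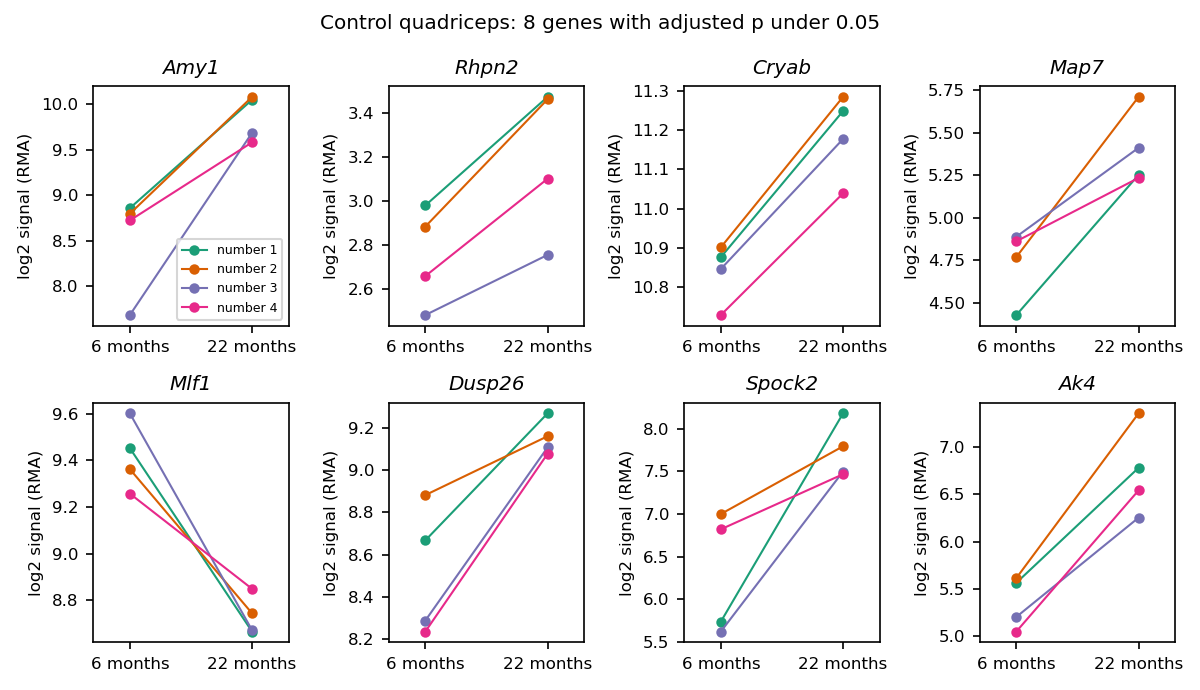
Log2 signal of the 8 called genes in control quadriceps at 6 and 22 months, 1 point per mouse, with the mice of the same replicate number joined by a line; each panel has its own axis, which does not start at 0. All lines of 7 genes go up and all those of Mlf1 go down, and the ages overlap for Rhpn2 alone.

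Other probe sets of the called genes gave a mixed picture. Of the 4 other probe sets of Ak4, those averaging 5.64 and 3.26 in young mice were higher in old muscle, by 0.57 and 0.90, without overlap of the ages. The remaining Ak4 probe sets differed by -0.20 and -0.08. A second Cryab probe set was higher by 0.26 (SE 0.07) and the last, much dimmer one differed by -0.02. Both other Map7 probe sets were higher in old muscle, by 0.25 and 0.27, and the other Spock2 probe set by 0.49. Amy1, Mlf1, Dusp26 and Rhpn2 had 1 probe set each. When each of 45037 probe sets was tested as its own feature, 19 passed in limma (0.0422%), 14 higher and 5 lower. Besides all 8 probe sets used for the called genes, they included further probe sets of Spock2, Dkk3 (2.64), Ccnd2 (-0.86) and Smad3 (-0.72).

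The promoter windows of 5 called genes are shown, each running from 250 bases before to 50 bases after a RefSeq start (build GRCm38.p6). Of the 8 called genes 6 were found in the promoter table, and Rhpn2, found there too, is not shown. Ak4 has 4 starts in the table, and the windows of the first and the last are printed. Capitals mark matches on either strand to TATAAA (the TATA box), GGGCGG (the GC box bound by Sp1), CANNTG (the E-box bound by myogenic and clock factors) and ACGTG (the core of the hypoxia response element); the last can lie within an E-box.
Amy1, chr3:113577701-113578000, minus strand: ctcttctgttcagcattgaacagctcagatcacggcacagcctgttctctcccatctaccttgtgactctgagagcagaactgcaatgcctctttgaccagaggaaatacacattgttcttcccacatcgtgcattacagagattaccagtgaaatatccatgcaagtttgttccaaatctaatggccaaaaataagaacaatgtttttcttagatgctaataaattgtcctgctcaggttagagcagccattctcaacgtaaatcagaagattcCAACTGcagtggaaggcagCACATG
Amy1, chr3:113574713-113575012, minus strand: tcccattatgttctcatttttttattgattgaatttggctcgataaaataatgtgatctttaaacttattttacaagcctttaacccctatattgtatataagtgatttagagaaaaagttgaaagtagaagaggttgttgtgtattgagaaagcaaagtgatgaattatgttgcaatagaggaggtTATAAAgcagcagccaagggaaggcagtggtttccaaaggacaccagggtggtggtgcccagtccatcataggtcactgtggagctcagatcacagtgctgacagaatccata
Ak4, chr4:101419039-101419338, plus strand: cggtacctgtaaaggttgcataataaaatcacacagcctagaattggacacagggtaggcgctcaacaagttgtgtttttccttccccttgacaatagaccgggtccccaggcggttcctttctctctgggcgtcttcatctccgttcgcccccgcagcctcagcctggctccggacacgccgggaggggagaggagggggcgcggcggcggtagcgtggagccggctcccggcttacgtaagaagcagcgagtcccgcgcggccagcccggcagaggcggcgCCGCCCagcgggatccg
Ak4, chr4:101419453-101419752, plus strand: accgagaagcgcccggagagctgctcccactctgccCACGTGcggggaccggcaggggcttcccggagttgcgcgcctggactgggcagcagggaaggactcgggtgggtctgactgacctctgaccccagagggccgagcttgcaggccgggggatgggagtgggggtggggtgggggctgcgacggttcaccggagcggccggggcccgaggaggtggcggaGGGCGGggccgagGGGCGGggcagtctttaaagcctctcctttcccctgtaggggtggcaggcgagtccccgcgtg
Spock2, chr10:60106007-60106306, plus strand: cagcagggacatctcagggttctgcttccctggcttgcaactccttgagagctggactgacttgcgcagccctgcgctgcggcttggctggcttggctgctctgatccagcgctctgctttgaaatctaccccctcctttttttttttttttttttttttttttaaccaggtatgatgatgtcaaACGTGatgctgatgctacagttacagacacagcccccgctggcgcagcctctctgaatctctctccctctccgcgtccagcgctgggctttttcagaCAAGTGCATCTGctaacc
Map7, chr10:20148670-20148969, plus strand: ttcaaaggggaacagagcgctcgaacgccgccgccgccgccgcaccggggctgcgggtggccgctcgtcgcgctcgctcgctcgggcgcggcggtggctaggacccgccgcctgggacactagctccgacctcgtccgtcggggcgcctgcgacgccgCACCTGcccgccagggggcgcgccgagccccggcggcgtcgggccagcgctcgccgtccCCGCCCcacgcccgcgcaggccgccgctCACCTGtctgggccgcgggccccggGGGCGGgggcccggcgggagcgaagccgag
Mlf1, chr3:67373847-67374146, plus strand: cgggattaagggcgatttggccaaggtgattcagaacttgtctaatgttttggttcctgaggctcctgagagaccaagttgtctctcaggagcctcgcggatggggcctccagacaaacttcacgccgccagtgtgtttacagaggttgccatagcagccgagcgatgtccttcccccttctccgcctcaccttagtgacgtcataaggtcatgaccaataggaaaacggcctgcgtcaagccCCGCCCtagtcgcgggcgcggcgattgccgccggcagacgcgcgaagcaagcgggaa

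No motif was common to the windows of all 5 genes. The downstream Amy1 window held TATAAA upstream of the start and on the coding strand, a motif that 13.6% of all 32851 windows in the table hold. The upstream Amy1 window held 2 E-boxes, both after the start. GGGCGG was in both Ak4 windows printed, in Map7 and in Mlf1, against 35.7% of all windows. ACGTG was in the downstream Ak4 window, inside an E-box, and in Spock2, against 19.6% of all windows. E-boxes were in 72.3% of all windows, and in windows of Amy1, Ak4, Spock2 and Map7. GC content ran from 38.0% in the downstream Amy1 window to 81.7% in Map7, around a median of 52.7% over all windows. The array does not tell which start was used.

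No relative of the called genes examined here passed the adjustment. Of 7 small heat shock proteins measured, Cryab rose and 0 fell. Of the 7, 6 were higher in old muscle, with a median difference of 0.11 against -0.01 over all genes. At an unadjusted p under 0.05, 2 were higher, Cryab among them, and 0 lower, against 4.66% and 4.98% of all genes. Hspb1, the abundant 27 kDa chaperone of muscle, was higher by 0.18 (SE 0.08, adjusted p = 0.505 by limma). Hspb7, a chaperone of striated muscle, was higher by 0.49 with an SE of 0.38, and its 8.02 in young mouse 3 lay far below the 9.62 to 10.50 of all other control mice. Hspb2, the chaperone gene that neighbours Cryab head to head on the chromosome, differed by -0.06 (SE 0.06).

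Of 18 adenylate kinase and phosphagen genes, Ak4 rose and 0 fell, 8 were higher and 10 lower. At an unadjusted p under 0.05, 2 were higher, Ak4 among them, and 5 lower, against 4.66% and 4.98% of all genes. Ak7 and Ak8 had differences of -0.20 (SE 0.07) and -0.22 (SE 0.08), each lower in 4 of 4 numbers. Both had signals within the range for non-specific binding. Ak3, the other adenylate kinase of the mitochondrial matrix, was lower in 4 of 4 numbers, at 9.12, 9.15, 8.80 and 9.01 in young and 8.87, 8.90, 8.47 and 8.66 in old mice, a difference of -0.29 (SE 0.06, adjusted p = 0.18 by limma). Ampd3, an AMP deaminase, was higher by 0.33 (SE 0.11), and Adssl1, the muscle adenylosuccinate synthase of the same purine cycle, had a difference of -0.14 (SE 0.05). Neither passed the adjustment. Among 21 dual-specificity phosphatases Dusp26 rose. Dusp14 and Dusp27 had differences of -0.35 and -0.31, and Dusp16 of 0.36, all with SEs of 0.10 to 0.12 and adjusted p from 0.288 to 0.362. At an unadjusted p under 0.05, 2 of the 21 were higher, Dusp26 among them, and 3 lower. The other amylase measured, the pancreatic Amy2a5, stayed between 3.32 and 3.57 in all 8 mice.

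A further 9 genes had an adjusted p between 0.05 and 0.10 and did not pass. Of these 5 were higher and 4 lower in old muscle. Dkk3, which encodes a secreted Dickkopf protein, showed the largest difference of the 17 genes under 0.10. It was at 6.78, 7.17, 6.21 and 5.27 in young and 8.92, 8.91, 8.06 and 8.59 in old mice, a difference of 2.26 (SE 0.39, adjusted p = 0.0658 by limma) or 4.80-fold, with no overlap. A second, dimmer Dkk3 probe set was higher by 2.64 and did pass when each probe set was tested as its own feature. Sesn1, sestrin 1, a p53 and FoxO target that restrains mTORC1, was at 6.81, 6.62, 5.27 and 6.23 in young and 7.95, 7.27, 6.38 and 6.69 in old mice. The Sesn1 ages overlapped, yet the old mouse was higher in 4 of 4 numbers, by 0.84 on average (SE 0.14, adjusted p = 0.0626). Tceal7 was higher by 0.90, Prkcz, an atypical protein kinase C, by 0.51, and Otog, otogelin, by 0.50. Of these Tceal7 alone showed no overlap. A second, dimmer Prkcz probe set differed by 0.07 (SE 0.10), and the other Sesn1 probe sets by 0.32 and 0.52.

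The next genes by p were Cd209a, a lectin of dendritic cells and macrophages, Bcap31, a membrane protein of the endoplasmic reticulum, and Kcnab1, a potassium channel beta subunit. Cd209a was nearly the same in the 4 young mice, from 4.56 to 4.62, and lay at 5.40, 5.25, 4.92 and 4.82 in old mice. Kcnab1 was higher by 1.46 (SE 0.28, adjusted p = 0.122 by limma) and its second probe set by 1.07, both without overlap. Among genes with an unadjusted p under 0.001, of which 50 were higher and 27 lower, the uncalled genes with the largest positive differences were Dkk3, Kcnab1, Ankrd1 and Rasd2. Ankrd1, a stretch-responsive ankyrin repeat protein of the sarcomere, was at 5.45, 6.14, 4.58 and 4.69 in young and 7.42, 7.06, 6.17 and 6.00 in old mice (difference 1.45, SE 0.34). Rasd2, a small GTP-binding protein, was higher by 1.39 (SE 0.28), and its young mice ranged from 5.82 to 7.74 while its old mice ranged from 8.04 to 8.61. On the lower side stood Sntb1, a syntrophin of the dystrophin complex, with a difference of -0.86 (SE 0.20), and Ccnd2, cyclin D2, with -0.72 (SE 0.14). All 6 Ccnd2 probe sets were lower in old muscle, by values between -0.51 and -0.86.

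Collagen transcripts were mostly lower in old muscle. Of 21 collagen chains measured 0 passed the adjustment, 18 were lower in old muscle, and 8 were lower and 0 higher at an unadjusted p under 0.05, against 4.98% and 4.66% of all genes. Their median difference was -0.18, against -0.01 over all genes. With no replicate block the count of 8 was 4. Col1a1, a chain of type I collagen, was at 9.37, 10.26, 9.46 and 9.62 in young and 9.06, 9.01, 8.47 and 8.10 in old mice. Its difference of -1.02 (SE 0.17, adjusted p = 0.0626 by limma) corresponds to a 2.02-fold lower signal, and no old mouse reached the lowest young mouse. Col3a1, the chain of type III collagen, was at 10.78, 10.97, 10.70 and 10.46 in young and 9.94, 10.08, 10.17 and 9.85 in old mice (difference -0.71, adjusted p = 0.0830). Col5a1 and Col5a2, chains of the type V collagen that nucleates fibrils, had differences of -0.68 and -0.69. Of these chains Col5a2 alone overlapped between the ages. Much dimmer second probe sets of Col3a1 and Col5a2 differed by -0.18 and -0.12.

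Sparc, which encodes a collagen-binding matricellular protein, went with the fibrillar collagens and opposite to its relative Spock2. Its signals were 10.83, 10.95, 10.90 and 10.73 in young and 10.55, 10.54, 10.46 and 10.39 in old mice, a difference of -0.36 (SE 0.07, adjusted p = 0.0830 by limma). Its second probe set gave -0.54. Of the 20 SPARC family and matricellular genes measured Spock2 rose and 0 fell, and 14 were lower, against 9078 of all 17093 genes. At an unadjusted p under 0.05, 2 were higher and 2 lower, against 4.66% and 4.98% of all genes. Postn, periostin, a matrix protein of wound healing, was lower in every old mouse (difference -0.52, SE 0.15), while Ccn1, a matricellular protein induced by growth factors and stretch, was higher in 4 of 4 numbers (1.14, SE 0.22, adjusted p = 0.122). Serpinh1, the collagen chaperone of the endoplasmic reticulum, had a difference of -0.59 (SE 0.19), and Loxl2, a lysyl oxidase that cross-links collagen, of -0.26 (SE 0.10). Eln, elastin, had -0.40 (SE 0.14). Smad3, which carries TGF-beta signals to the nucleus, was at 9.71, 9.63, 9.60 and 9.41 in young and 9.11, 9.11, 8.98 and 9.35 in old mice (difference -0.45, SE 0.10, adjusted p = 0.149). Of 29 genes of TGF-beta and myostatin signalling 16 were higher and 13 lower. Smad3 was the 1 member with an unadjusted p under 0.05, where 4.66% of all genes were higher and 4.98% lower.

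Markers of fibroblasts did not show the same regularity: 9 of 17 were higher and 8 lower, with a median of 0.01. Their median level per mouse, relative to the young mean of each gene, lay between -0.25 and 0.35 in young and between -0.32 and 0.26 in old mice. The tendon markers had a median of -0.09 over 10 genes, with 3 higher and 7 lower and single differences from -0.49 to 0.33. At an unadjusted p under 0.05, 1 was higher and 1 lower, against 4.66% and 4.98% of all genes. In 1 marker all old mice lay above all young mice. The lower one was Scx, the scleraxis transcription factor of tendon. Its ages overlapped, and it was lower in 4 of 4 numbers (difference -0.33, SE 0.11). The part of either cell type in the collagen values was not tested. In whole muscle, fewer cells of a type and less RNA per cell cannot be told apart.

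Markers of macrophages were higher in old muscle, though 0 of 20 passed the adjustment. Of the 20 measured, 19 were higher, and 12 were higher and 0 lower at an unadjusted p under 0.05, against 4.66% and 4.98% of all genes, with a median of 0.42. The count of 12 was 5 without young control mouse 1, 6 without old control mouse 1, 7 without old control mouse 2 and 8 with no replicate block. Adgre1, which encodes the F4/80 antigen, was at 3.79, 3.98, 4.25 and 4.40 in young and 4.88, 5.71, 4.81 and 4.57 in old mice (difference 0.89, SE 0.20, adjusted p = 0.183 by limma). Lgals3, galectin 3, was at 5.29, 5.50, 5.01 and 5.32 in young and 6.74, 5.78, 5.76 and 5.66 in old mice (0.71, SE 0.17, adjusted p = 0.193). Cd53, a leukocyte tetraspanin, was higher by 0.60 and Cd14, the co-receptor for lipopolysaccharide, by 0.32 (SE 0.06). For Adgre1, Lgals3 and Cd53 all old mice were above all young mice. The list differed in size with the replicate number: its median was 0.78 and 0.61 in numbers 1 and 2, but 0.36 and -0.01 in numbers 3 and 4. Fitted alone, the arrays of numbers 1 and 2 had 17 of 20 markers higher at an unadjusted p under 0.05, and those of numbers 3 and 4 had 2.

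Complement genes followed the same course. All 18 measured were higher in old muscle, with a median of 0.35, and 0 passed the adjustment. At an unadjusted p under 0.05, 7 were higher and 0 lower, against 4.66% and 4.98% of all genes. With no replicate block the count of 7 was 3. C3ar1, the receptor of the fragment C3a on myeloid cells, was at 4.97, 5.60, 5.65 and 5.31 in young and 6.34, 6.36, 6.03 and 5.94 in old mice (difference 0.79, SE 0.18, adjusted p = 0.183 by limma). C1qc, a chain of the recognition molecule C1q, was higher in 4 of 4 numbers, by 0.71 (SE 0.23), and C4b, which carries complement activation on from C1, in 3 of 4, by 0.90 (SE 0.32). C1s1, the protease of the C1 complex, was higher by 0.49 (SE 0.12). Clu, clusterin, an extracellular chaperone that also restrains the terminal complex, was at 8.72, 8.63, 8.78 and 7.77 in young and 9.31, 9.30, 8.91 and 8.96 in old mice (0.64, SE 0.15). The median over the list was 0.62 and 0.41 in numbers 1 and 2 and 0.14 and 0.20 in numbers 3 and 4. With family added to the fit the medians were 0.06 for complement and -0.03 for the macrophage markers, and what family stands for in these values was not tested.

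Among 27 chemokines and receptors 0 passed. At an unadjusted p under 0.05, 5 were higher and 2 lower, against 4.66% and 4.98% of all genes. Ccl8, a CC chemokine that draws leukocytes, was at 4.44, 4.42, 4.80 and 4.45 in young and 6.88, 6.58, 5.20 and 5.61 in old mice. It was thus higher in each old mouse than in any young mouse (difference 1.53, SE 0.40, adjusted p = 0.25 by limma), and more so in mice 1 and 2. Ccl6 and Ccl9, chemokines of myeloid cells, were higher by 0.82 and 0.62, also without overlap. Of 15 granulocyte and mast cell markers 9 were higher and 6 lower, with a median of 0.05, 3 higher and 1 lower at an unadjusted p under 0.05, and 0 passed. Cma1, a chymase, was at 6.21, 6.06, 6.51 and 6.48 in young and 7.02, 6.76, 7.01 and 6.79 in old mice. The 3 higher members were Cma1, Cpa3 and Mcpt4, proteases of mast cell granules, with differences of 0.58, 0.67 and 0.53, with adjusted p from 0.183 to 0.335. Igkj1, a joining segment of the immunoglobulin kappa light chain, was at 3.31, 3.34, 5.77 and 4.74 in young and 8.62, 5.89, 6.81 and 5.98 in old mice (2.53, SE 0.65, adjusted p = 0.24), while the 12 B and plasma cell markers had a median of -0.01. The 15 T and natural killer cell markers had a median of -0.02, with Cd3g, a subunit of the T cell receptor complex, at -0.29 (SE 0.10).

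**Figure D3:**
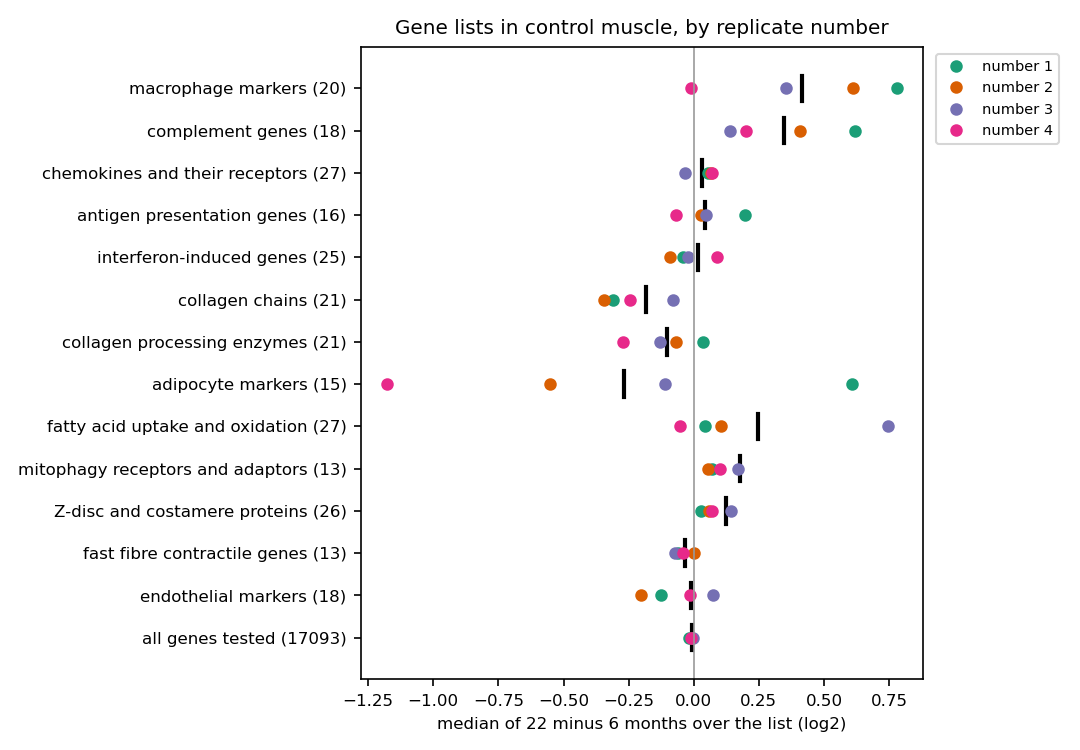
Median difference between 22 and 6 months over the members of 13 gene lists and over all genes (log2, x axis), with the number of members in parentheses. Coloured points are the medians within each replicate number and black bars the medians of the fitted differences. Of the lists drawn, which leave out the slow fibre genes (0.53), macrophage and complement medians lie highest, at 0.42 and 0.35, and the collagen median lies at -0.18 with all 4 numbers below 0.

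Contractile genes of fast fibres differed little in the median, with single differences from -0.17 to 0.37. At an unadjusted p under 0.05, 0 were higher and 2 lower, against 4.66% and 4.98% of all genes. The lower ones were Tnni2 and Tpm1, a tropomyosin, which was lower in 4 of 4 numbers (-0.17, SE 0.06). The 13 fast fibre genes had a median of -0.04, and their median level per mouse lay between -0.06 and 0.08 in young and between -0.13 and 0.04 in old mice. Tnni2, the fast troponin I, was at 12.21, 12.22, 12.29 and 12.22 in young and 12.13, 12.16, 12.18 and 12.18 in old mice. Its difference of -0.07 (SE 0.03, adjusted p = 0.425 by limma) was small but without overlap. Slow fibre genes varied between mice far more than between ages. All 10 had a higher mean in old muscle, with a median of 0.53, but 0 had an unadjusted p under 0.05 and the medians within numbers 1 to 4 were -0.01, 1.24, 3.85 and -2.57. Myh7, the slow myosin heavy chain, was at 4.68, 8.71, 4.91 and 9.61 in young and 4.83, 10.15, 9.34 and 5.51 in old mice. Both ages thus held mice with high and with low Myh7, and its difference of 0.48 had an SE of 1.41. Which piece of the quadriceps was taken is not given in the labels, and its part in these values was not tested.

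Proteins of the Z-disc and the membrane skeleton around it leaned upwards, with 18 of 26 higher. At an unadjusted p under 0.05, 8 were higher and 0 lower, against 4.66% and 4.98% of all genes, and 0 passed the adjustment. Besides Ankrd1 these included Pdlim3, an actinin-associated LIM protein, at 11.00, 10.98, 10.98 and 10.84 in young and 11.21, 11.03, 11.13 and 11.14 in old mice (difference 0.18, SE 0.05). Myot, myotilin, was higher by 0.12 (SE 0.04), and Dmd, dystrophin, by 0.30 (SE 0.12). Camk2b, a calcium and calmodulin dependent kinase of muscle, was at 8.83, 8.87, 8.32 and 8.45 in young and 9.20, 9.08, 8.95 and 9.14 in old mice (0.48, SE 0.11, adjusted p = 0.183 by limma). Its relative Camk2d had a difference of -0.27 (SE 0.10). The list of 21 calcium and excitation genes had 1 higher and 1 lower at an unadjusted p under 0.05, which were these kinases.

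Of 23 genes of the neuromuscular junction and denervation 13 were higher and 0 passed. At an unadjusted p under 0.05, 2 were higher and 0 lower, against 4.66% and 4.98% of all genes. Chrnb1, the beta subunit of the muscle acetylcholine receptor, was higher in 4 of 4 numbers, by 0.62 (SE 0.16, adjusted p = 0.25 by limma). Cdkn1a, the p21 cell cycle inhibitor, was at 8.51, 8.76, 7.84 and 8.53 in young and 9.14, 9.41, 9.30 and 9.17 in old mice. Every old mouse exceeded every young mouse, yet the SE of 0.37 over all arrays left the difference of 0.85 at an adjusted p of 0.484. Of 22 satellite cell and myogenic genes 11 were higher and 11 lower, with a median of 0.003, and 0 passed. At an unadjusted p under 0.05, 1 was higher and 1 lower, against 4.66% and 4.98% of all genes. The higher one was Mef2c (0.14, SE 0.06). The lower one was Pax7, the transcription factor of satellite cells. It was at 3.69, 3.81, 3.94 and 3.80 in young and 3.19, 3.03, 3.52 and 3.92 in old mice (-0.39, SE 0.12). Of 23 senescence and p53 genes 15 were higher and 8 lower, with a median of 0.08, 4 higher and 0 lower at an unadjusted p under 0.05, and 0 passed. Phlda3 had a difference of 0.57 (SE 0.15) and was higher in 3 of 4 numbers, and Eda2r, the ectodysplasin A2 receptor, had 0.58 (SE 0.19).

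Fatty acid genes were mostly higher in old muscle, and the difference was largest in number 3. Of 27 genes of uptake and oxidation 25 were higher, with a median of 0.25, and 0 passed the adjustment. At an unadjusted p under 0.05, 6 were higher and 0 lower, against 4.66% and 4.98% of all genes. The median was 0.04, 0.10 and -0.05 in numbers 1, 2 and 4 and 0.75 in number 3. Pdk4, the kinase that closes pyruvate dehydrogenase when fat is burned, was at 9.78, 10.11, 8.64 and 9.89 in young and 10.81, 10.03, 10.77 and 10.63 in old mice (0.96, SE 0.22, adjusted p = 0.183 by limma). Young mouse 3 was also lowest for Decr1, an enzyme of beta-oxidation, at 8.07 against 8.63 to 9.34 in the others, and for Slc25a20, the carnitine carrier, at 7.39 against 8.54 to 9.01. Without young control mouse 3 the median was 0.10, with 2 genes higher at an unadjusted p under 0.05. Without old control mouse 3 the median was 0.11, again with 2 genes. The count was 16 without young control mouse 4 and 14 without old control mouse 1. Pnpla2, adipose triglyceride lipase, was higher in 4 of 4 numbers, by 0.33 (SE 0.11).

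Other energy pathways differed less. The 18 glycolysis genes had a median of -0.01, and Slc2a1, the basal glucose transporter, was higher by 0.38 (SE 0.13). Of 21 glycogen and starch genes Amy1 rose and 0 fell, and Ppp1r3c, which targets protein phosphatase 1 to glycogen, was higher in 4 of 4 numbers, by 0.55 (SE 0.21). The 23 genes of the tricarboxylic acid cycle and pyruvate dehydrogenase had a median of 0.04, and 0 had an unadjusted p under 0.05. The 22 genes of mitochondrial fusion and fission, the group to which Mfn2 belongs, had a median of 0.01. At that threshold 1 was higher and 1 lower, against 4.66% and 4.98% of all genes. Chchd3, a protein of the cristae junction complex, was the lower of them (-0.17, SE 0.07). Sirt1, the NAD-dependent deacetylase, was at 3.90, 3.93, 4.31 and 4.30 in young and 4.43, 4.72, 4.37 and 4.64 in old mice (0.43, SE 0.12, adjusted p = 0.26 by limma).

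**Figure D4:**
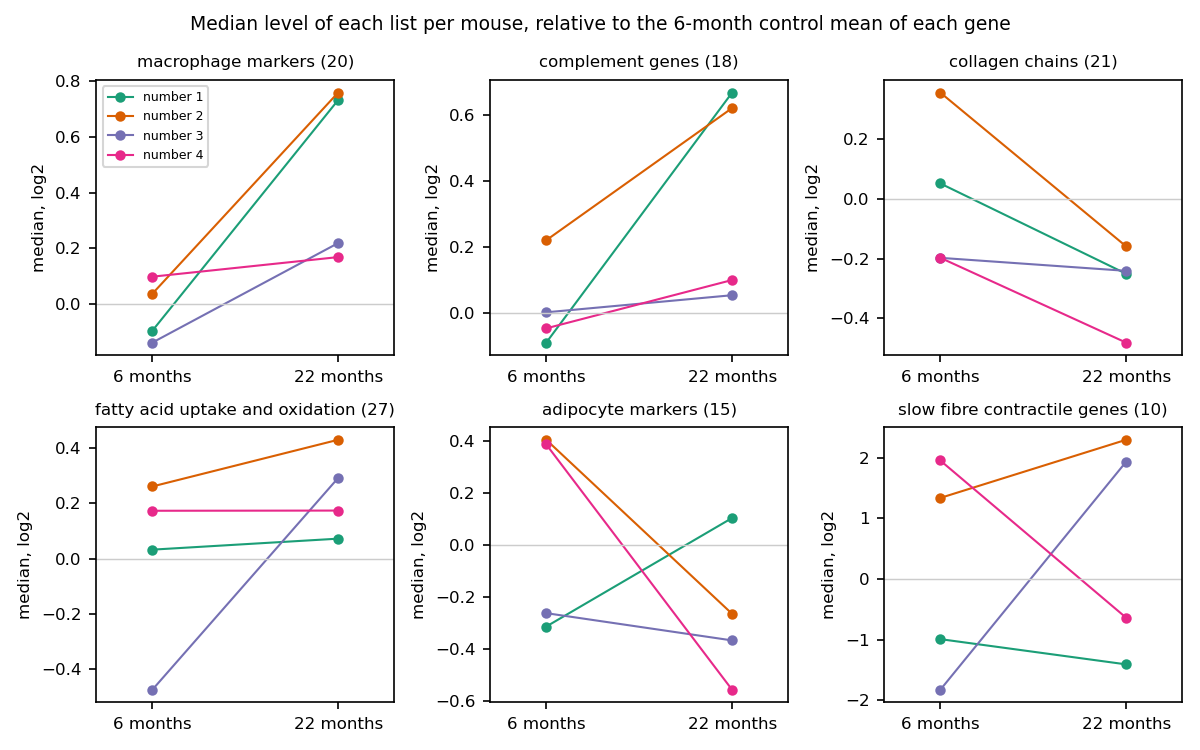
Median level of 6 gene lists in each control mouse at 6 and 22 months, relative to the mean of each gene in the 4 young mice (log2), with mice of the same replicate number joined. Macrophage and complement medians are highest in old mice 1 and 2, the fatty acid median of young mouse 3 lies at -0.47, and the slow fibre medians run from -1.83 to 2.30 with no order by age.

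Among stress pathways, receptors and adaptors of mitophagy, which mark mitochondria for degradation, were higher in 10 of 13 genes. Of these 6 were higher and 0 lower at an unadjusted p under 0.05, against 4.66% and 4.98% of all genes, the median was 0.18, and 0 passed the adjustment. The count of 6 was 3 without old control mouse 3, 3 with no replicate block and 1 with arrays scaled to one spread. It was 2 with the pyruvate carboxylase signal, an RNA control, as a covariate. That signal is the 3' minus 5' log2 difference between control probe sets of the transcript on each array. Pink1, the kinase that starts Parkin-dependent mitophagy, was at 10.91, 10.89, 10.96 and 11.16 in young and 11.09, 11.21, 11.13 and 11.20 in old mice (0.18, SE 0.05, adjusted p = 0.308 by limma). Bnip3, a receptor on the outer membrane, was at 10.26, 10.38, 10.14 and 10.32 in young and 10.44, 10.54, 10.40 and 10.53 in old mice, without overlap (0.20, SE 0.07). Gabarapl1, an ATG8 protein of the autophagosome, was at 8.96, 9.21, 8.90 and 8.98 in young and 9.43, 9.57, 9.49 and 9.23 in old mice (0.42, SE 0.09, adjusted p = 0.154). Of 28 autophagy genes 18 were higher, with a median of 0.05, and Gabarapl1 was the 1 with an unadjusted p under 0.05. Foxo3, a driver of atrophy and autophagy genes, was higher by 0.46 (SE 0.17), and Trim63, the MuRF1 ubiquitin ligase, by 0.50 (SE 0.18), each in 3 of 4 numbers.

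Of 22 chaperones of the Hsp70, Hsp90 and J-protein families 5 were higher and 1 lower at an unadjusted p under 0.05. The shares over all genes were 4.66% and 4.98%. Dnaja4 was higher by 0.56 (SE 0.18), Hspa1l by 0.41 (SE 0.14) and Dnajb6, a J-protein of the Z-disc, by 0.27 (SE 0.09), while Hspa4l, a nucleotide exchange factor, had a difference of -0.38 (SE 0.11). The adjusted p of these chaperones lay between 0.294 and 0.374 (limma). In young muscle Dnaja4 and Hspa1l were lowest in mice 3 and 4. Gpx3, the secreted glutathione peroxidase, was higher in every old mouse (0.43, SE 0.14), and Txn1, thioredoxin 1, was lower in every old mouse (-0.16, SE 0.05). Of 29 antioxidant genes 2 were higher and 1 lower at an unadjusted p under 0.05, against the same shares over all genes. Atf3, a stress-induced transcription factor, was at 5.83, 6.78, 4.87 and 5.44 in young and 5.96, 7.53, 7.89 and 7.79 in old mice, so that its difference of 1.57 had an SE of 0.72.

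Adipocyte and lipogenic genes varied strongly between mice. Of 15 adipocyte markers 12 were lower in old control muscle, with a median of -0.27. At an unadjusted p under 0.05, 0 were higher and 3 lower, against 4.66% and 4.98% of all genes. Adipoq, adiponectin, which is made by fat cells, was at 7.15, 8.78, 8.42 and 8.58 in young and 8.80, 6.96, 5.75 and 5.51 in old mice (difference -1.48, SE 0.72, adjusted p = 0.539 by limma). Scd1, stearoyl-CoA desaturase 1, was at 8.06, 10.28, 10.11 and 10.26 in young and 9.04, 8.11, 7.96 and 8.28 in old mice (-1.33, SE 0.46). In both genes number 1 went the opposite way from numbers 2, 3 and 4. The amount of fat cells in each piece of muscle was not tested. Among 20 clock genes Dbp, an output of the circadian clock, was lower in 4 of 4 numbers (-1.37, SE 0.54), Nr1d2 in 3 of 4 (-0.37, SE 0.16), and Nfil3, a repressor that competes with Dbp, was higher in every old mouse (0.57, SE 0.23). In the clock list 2 were higher and 4 lower at an unadjusted p under 0.05, against 4.66% and 4.98% of all genes. Of its members 0 passed the adjustment. The hour of dissection is not given in the labels, and its part in the clock values was not tested.

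Blood and other tissues in the sample were checked by their markers. Of 5 erythrocyte markers 2 were higher and 3 lower, with a median of -0.04, and 0 passed. Hba-a1, an alpha globin, was higher by 0.33 (SE 0.10) and Alas2, the erythroid haem synthase, by 0.87 (SE 0.30), each in 3 of 4 numbers. The 18 endothelial markers had a median of -0.01 and the 12 Schwann cell and nerve markers of -0.03. Tfrc, the transferrin receptor, had signals of 8.22, 8.70, 7.66 and 8.03 in young and 6.94, 7.54, 7.02 and 8.03 in old mice (-0.77, SE 0.20, adjusted p = 0.25 by limma). The part of blood in these values was not tested.

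The same age step in Mfn2 KO muscle was set beside that in control muscle, and the difference of the 2 steps was tested. In KO muscle 4 genes passed (0.0234%), 1 up and 3 down, and at an unadjusted p under 0.05 there were 746 higher (4.36%) and 1004 lower (5.87%). Mlf1 alone passed in both genotypes, with -0.69 in control and -0.82 in KO muscle (KO adjusted p = 0.016 by limma). The difference of the steps passed for 0 genes (0.0%, limma, smallest adjusted p 0.643), and 1236 genes (7.23%) had an unadjusted p under 0.05. The 8 called genes had the same sign in KO muscle, and 7 had a smaller step there. The KO step was 0.86 for Amy1, 0.87 for Spock2, 0.60 for Ak4, 0.26 for Rhpn2, 0.14 for Cryab, and 0.17 for both Map7 and Dusp26. The unadjusted p of the difference was 0.0131 for Cryab, 0.00346 for Map7, 0.00478 for Dusp26 and 0.0276 for Ak4. Since the 8 genes were chosen for a large step in control muscle, a smaller step elsewhere follows in part from the choice.

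The KO levels of those genes are given beside the control levels. Dusp26 averaged 8.52 in young control, 9.15 in old control, 9.07 in young KO and 9.24 in old KO muscle. Cryab averaged 10.84, 11.19, 11.09 and 11.23 in the same order. The young KO mean thus lay nearer to the old control mean than to the young control mean for both genes. Map7 averaged 4.74, 5.40, 4.83 and 5.0 in that order, and Ak4 5.36, 6.73, 5.79 and 6.40. For these the young KO mean lay nearer to the young control mean.

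**Figure D5:**
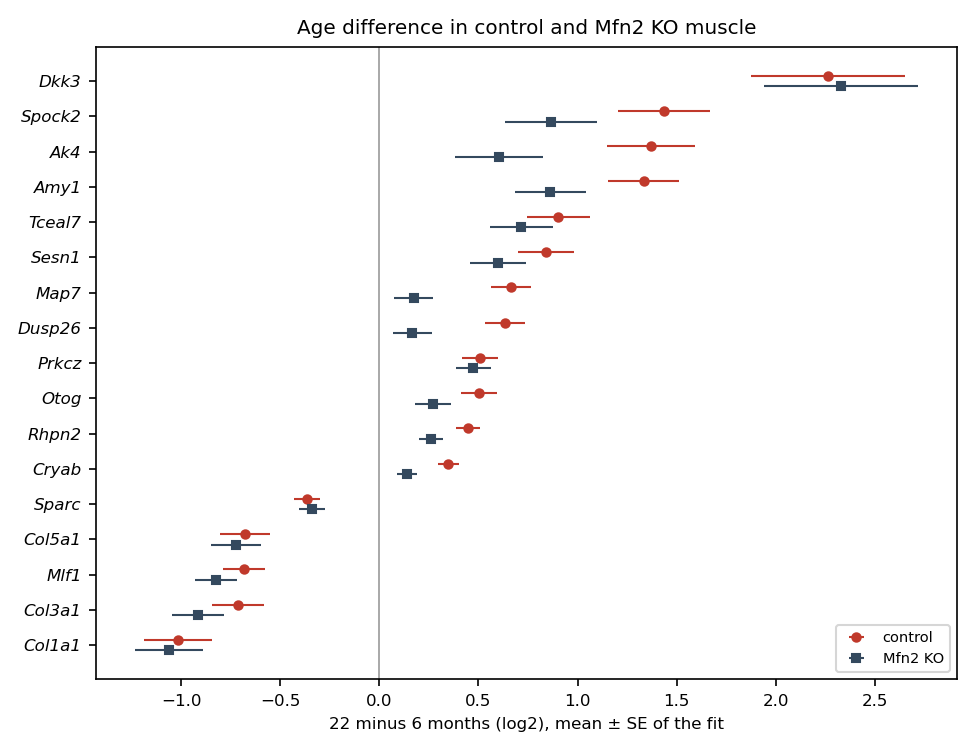
Difference between 22 and 6 months (log2, with the SE of the fit) in control (circles) and Mfn2 KO muscle (squares) for the 17 genes with an adjusted p under 0.10 in control muscle. The collagens, Sparc, Dkk3 and Prkcz lie close together in the genotypes, while Map7, Dusp26, Cryab and Ak4 lie farther from 0 in control muscle.

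The median of the 21 collagen chains was -0.18 in control and -0.34 in KO muscle, with 8 and 14 chains lower at an unadjusted p under 0.05, and the difference of the steps had such a p in 1 chain. Of all genes, 4.98% were lower at that p in control and 5.87% in KO muscle, and 7.23% had such a p for the difference. Col1a1 had steps of -1.02 in control and -1.06 in KO muscle, and Col3a1 of -0.71 and -0.92. Outside the collagens, Dkk3 had steps of 2.26 and 2.33. Of the gene lists, the antigen presentation genes had medians farthest apart, at 0.04 in control and 0.76 in KO muscle. In control muscle 0 of 16 of them had an unadjusted p under 0.05, in KO muscle 12 were higher, and the difference of the steps had an unadjusted p under 0.05 in 8. Of all genes, 4.66% were higher at that p in control and 4.36% in KO muscle, beside the 7.23% for the difference. The old KO mice were uneven, with list medians of 0.97 and 1.12 in mice 1 and 3 and 0.24 in both mice 2 and 4. The control count of 0 became 4 without old control mouse 4, 3 with the control arrays alone and 6 in numbers 1 and 2. H2-Ab1, a chain of MHC class II, had a control step of 0.53 (SE 0.34) and a KO step of 1.06. Of 25 interferon-induced genes 0 were at an unadjusted p under 0.05 in control muscle and 7 were higher in KO muscle, with medians of 0.02 and 0.33. The shares of all genes higher at that p were again 4.66% and 4.36%. Old KO mouse 1 stood apart, with a list median of 1.04 relative to the young control mean, against 0.12, 0.26 and -0.03 in old KO mice 2 to 4. The adipocyte markers had a KO median of 0.24, and Adipoq had a KO step of 2.39 beside the control step of -1.48 (difference -3.87, SE 1.02, unadjusted p = 0.0019, adjusted p = 0.643 by limma).

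The genes with the smallest p for the difference were Gm6150, Sf3b2, Sfr1, Nlrc5, Sncg and Dtwd1. Nlrc5, an activator of MHC class I genes, had a control step of -0.21 and a KO step of 0.96, a difference of -1.17 (SE 0.24). Sncg, gamma-synuclein, which fat cells and neurons express, had -0.55 and 0.40. Sf3b2, a splicing factor, had 0.36 in control and -0.15 in KO muscle, and Sfr1, a recombination factor, 0.24 and -0.35. The unadjusted p of these 6 genes ran from 6.95e-05 to 0.000378, and the adjusted p was 0.643 for each.

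Nrep, neuronal regeneration related protein, was at 10.55, 10.32, 10.56 and 10.23 in young control and 9.84, 10.15, 10.01 and 9.77 in old control mice. No old mouse reached a young one, and the control step of -0.47 (SE 0.16, adjusted p = 0.372 by limma) stood beside a KO step of -1.19. Clu and C1s1 showed the reverse order, with control steps of 0.64 and 0.49 and KO steps of -0.03 and -0.09. For the difference the unadjusted p was 0.00724 and 0.00312, and the adjusted p was 0.643 for both (limma). Both genes were named for a small p of the control step, so a smaller KO step follows in part from the choice. C4b had a smaller control than KO step, 0.90 against 1.63, with an unadjusted p of 0.129.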

How the data were processed

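Whole quadriceps RNA (25 ng per mouse, amplified with a whole transcriptome kit) was hybridised to 16 Affymetrix mouse arrays, 4 per group, 1 mouse each. The authors deposited log2 signals per probe set that were made with RMA (affy), per the submitters' processing notes; versions and background settings are not given in the sources used here. RMA pulls the arrays to one distribution of probe intensities, so a shift common to all genes cannot be seen. Of 45141 probe sets, 104 were controls. Of the rest 28898 had 1 gene symbol in GEO's platform annotation, 551 several and 15588 none, and 28689 of the first matched RefSeq's table. The brightest probe set per gene over all arrays gave 17093 genes; 4 sex-linked genes were not tested, and no filter on dim genes was used. The scanner files were not used here.

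The fit was limma 3.58.1 in R 4.3.3 with 4 group means, the replicate number as a block, moderation with trend and Benjamini-Hochberg adjustment over all genes. Differences are old minus young in log2. Same-numbered arrays correlated at 0.288 to 0.78 (median 0.676) after group means were removed. Differently numbered arrays ran from -0.764 to 0.725 (median -0.454), so some of them also correlated highly. Where same-numbered arrays correlate, removal of group means itself pushes the other values below 0 on average. The block was set beforehand, with earlier results of these data known, and the labels do not explain the number. Mfn2 was also tested by exact permutation. On simulated data for the control comparison (17093 genes), changes of 0.5 were recovered for 36 of 50 genes. Changes of 1 and of 1.5 were recovered for 49 of 50 each, and of 2 for 50 of 50, with 11 unchanged genes called. The simulated noise was independent between genes and arrays, and more genes were changed than the 8 called. The recovery therefore does not measure the sensitivity on the real arrays, where Dkk3 at 2.26 did not pass. Alternatives were the block, the arrays used, the moderation, the probe set rule, a level filter, scaling, array weights, family, an RNA control signal and left-out arrays. The RNA control signal, called the pyruvate carboxylase signal, is the 3' minus 5' log2 difference between the control probe sets of that transcript. The split by numbers and the test of all probe sets were added after seeing the data. Members and gene lists were chosen with earlier results of these data known. Genes named are those called, Mfn2, the next 12 by p, the 6 largest each way at an unadjusted p under 0.001, up to 4 members per list with the smallest p, relatives of the called genes, genes named in the study's description, and up to 6 with the smallest p for the genotype difference. Promoters are from RefSeq, build GRCm38.p6. Depth does not apply to arrays; their number limits the precision.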

Additional observations from a re-analysis of the deposited data

Results flagged for a closer look

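Amy1 in young control mouse 3 had a signal of 7.69, far below the other 3 young mice, which lay between 8.72 and 8.86. It was the single distant value in 42 groups of 4 mice examined, and some such values arise by chance. The old mouse of the same number was not low (9.69), and without young mouse 3 Amy1 was the 1 gene that passed.

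Among the called genes, 4 had an age step in control muscle that exceeded the KO step at an unadjusted p under 0.05 for the difference: by 0.21 for Cryab, 0.49 for Map7, 0.47 for Dusp26 and 0.77 for Ak4. The adjusted p of these differences lay between 0.643 and 0.666 (limma, Benjamini-Hochberg), so none passed. The genes had been chosen for their step in control muscle.

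Probe sets without a single gene symbol were not part of the gene comparisons, and 7 of them passed when each probe set was tested on its own. Higher in old control muscle were 1421653_PM_a_at by 3.09, 1434975_PM_x_at, which the annotation pairs with several symbols, by 1.23, 1436944_PM_x_at by 1.23, 1426387_PM_x_at by 0.98 and 1429300_PM_at by 0.79. Lower were 1455494_PM_at (-1.05) and 1423110_PM_at (-1.06). The probe set 1421653_PM_a_at averaged 4.65 in young and 7.74 in old mice, with an SD of 1.34 among the old.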

How the results depend on the processing

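The direction of all 8 called genes held under every alternative in which they were tested, 23 or 24 each, with Amy1 between 1.10 and 1.49, Ak4 between 0.51 and 1.64, and Mlf1 between -0.78 and -0.55. The number of calls was near 8 under quantile normalization (7, all among the 8) and array weights (9, of which 7 were among the 8), and differed elsewhere. Limma gave 0 with no replicate block (363 genes at an unadjusted p under 0.05), 0 with the control arrays alone, 0 with moderation without trend, 0 with a mean level of at least 5, 0 with the pyruvate carboxylase signal, and 0 with numbers 3 and 4 alone. It gave 1 with family (Rasd2), 2 with arrays scaled to one spread, 3 with the mean of probe sets, 3 with numbers 1 and 2 alone, 17 at an adjusted p under 0.10 and 19 with every probe set. Left-out arrays or numbers gave 0 to 12 calls. The KO calls (4) ranged from 0 to 10, and those of the genotype difference from 0 to 1. With family the list medians became 0.063 for complement, -0.030 for macrophage markers, -2.56 for slow fibre genes and -0.14 for antigen presentation; the last was 0.20 with the pyruvate carboxylase signal and ranged from -0.051 to 0.17 over left-out arrays. The collagen median was -0.37 at a mean level of at least 5 and -0.30 in numbers 1 and 2. The mitophagy median was 0.13 with the mean of probe sets, 0.10 with the pyruvate carboxylase signal, 0.086 in numbers 1 and 2 and 0.12 to 0.19 over left-out arrays. Signs reversed for Myh7 (-3.87 with family; -0.84 to 2.02 over left-out arrays), H2-Ab1 (-0.16 with family), Hspb7 (-0.17 in numbers 1 and 2; -0.17 to 0.80 over left-out arrays) and Mfn2 (0.022 in numbers 3 and 4; -0.37 to 0.10 over left-out arrays). Fewer arrays and lower residual degrees of freedom enter the left-out fits by construction; otherwise the cause was not tested. Family and age share most of their contrast, so the family values rest on few mice. Signals near non-specific binding, such as those of Rhpn2 and Pax7, limit what the arrays show.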
